A study of Mus musculus with 2 samples.

Results

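The dual-specificity phosphatases (DUSPs) that act on MAP kinases were examined in M-MDSCs, the monocytic subset of myeloid-derived suppressor cells, isolated from 4T1 tumours of mice on a normal-salt diet (NSD) or a high-salt diet (HSD). The genes were Dusp1, Dusp2, Dusp3, Dusp4, Dusp5, Dusp6, Dusp7, Dusp10, Dusp16 and Dusp22. They were found by the RefSeq transcript that each array probe is listed for, which gave 13 probes for these 10 genes, out of 27223 probes and 20653 genes named in this way. Female BALB/c mice (BABL/c in the sample labels) had all been injected with 1000000 cells of 4T1, a mammary carcinoma line, into the left armpit. For the next 16 days the NSD mice ate chow containing 0.4% NaCl and drank tap water, whereas the HSD mice ate chow containing 4% NaCl and drank 1% saline. M-MDSCs from the tumours were isolated with a magnetic bead kit and pooled in equal numbers within each diet, and the RNA of each pool was hybridised to 1 single-colour (Cy3) array. Each diet therefore has 1 value per probe, the spread between mice is unknown, and the diets could not be tested against each other.

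MAP kinases are switched on when a MAP kinase kinase phosphorylates a threonine and a tyrosine in their activation loop, and DUSPs switch them off by removing both phosphates. The typical members, known as MAP kinase phosphatases (MKPs), carry a docking domain that selects among ERK, JNK and p38 (the MAP kinase of the response to hypertonic stress), whereas atypical DUSPs lack it. Several MKP genes are themselves induced by MAP kinase signalling, which makes them feedback inhibitors, and in myeloid cells DUSP1 is known for limiting p38 and JNK signalling and cytokine production after Toll-like receptor stimulation. The study examined p38 and JNK signalling under high salt, and the question for these genes was whether the transcripts of the phosphatases of that pathway differed between the diets.

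Of the 10 DUSP genes, Dusp16 was at least 1.5-fold higher in the HSD group, Dusp6 and Dusp3 were lower by at least that much, and the other 7 differed by less than 1.5-fold. Over the 16316 genes that had a usable probe, 9.86% passed 1.5-fold upwards, 10.3% downwards and 20.2% in either direction, so 3 of 10 DUSP genes is near that background. At a 2-fold threshold 2.62% of all genes were higher and 4.17% lower, and 2.68% of all probes were higher, beside 0 DUSP genes higher, 2 lower (Dusp6 and Dusp3) and 1 DUSP probe higher. The median log2 fold change of the 10 genes, as HSD minus NSD, was −0.090, beside 0.045 over all genes. In pooled cells, fewer cells of a type and less RNA per cell cannot be told apart. Counted by probe, 2 of the 13 were higher by at least 1.5-fold and 3 lower, against 10.2% and 8.92% of all 29599 usable probes, or 19.2% in either direction. Here the signal of a probe is an intensity corrected for background, given as extracted from each array, and a log2 fold change is taken after subtracting the 75th percentile of each array, which adds 0.11 to the log2 ratio of the signals.

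**Figure D1:**
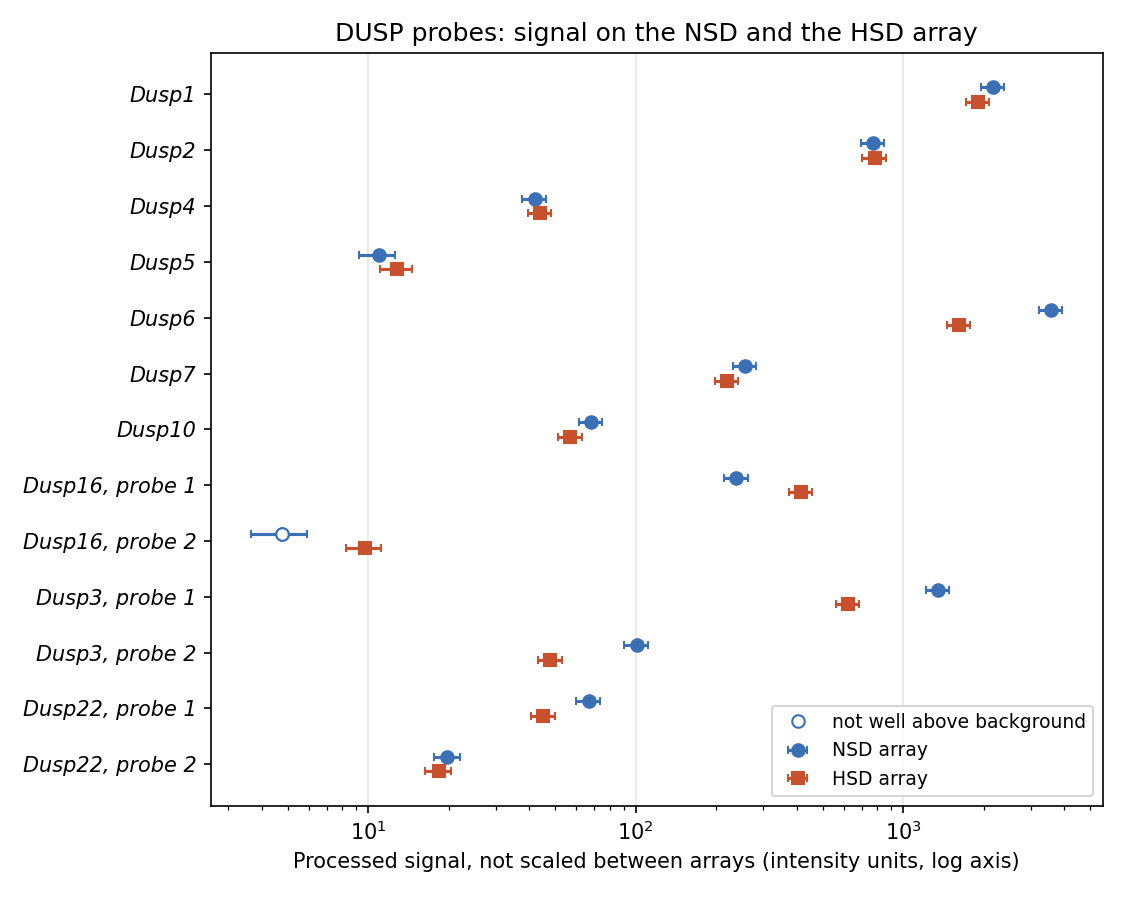
Signal of each DUSP probe on the NSD array (circles) and on the HSD array (squares), in intensity units on a log axis, with the extraction software's error of the spot as the bar; the open circle was not well above background. The error bars of the arrays do not overlap for Dusp6, for both probes of Dusp3 and of Dusp16, and for the brighter probe of Dusp22. They overlap for the other probes.

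The annotated regions upstream of 5 of the genes are shown here. Dusp6, Dusp16 and Dusp3 are the genes past 1.5-fold, and Dusp1 and Dusp5 are included because their upstream regions held motifs of signal-responsive factors. RefSeq on GRCm38.p6 gave an upstream region for 9 of the 10 genes, and for Dusp4 none was used. Each sequence is the 250 bases before the annotated start of 1 transcript, which for Dusp16 and Dusp3 lies inside the span of the gene, written 5′ to 3′ on the gene's strand. Capitals mark matches, on either strand, to the CRE (TGACGTCA), its half-site (TGACG, which also lies within the full CRE), AP-1 (TGANTCA), ETS (CCGGAA), the NFAT5 core (TGGAAA), the TATA motif (TATAAA) and the CArG box of serum response factor.
Dusp6, chr10:99262981-99263230, plus strand: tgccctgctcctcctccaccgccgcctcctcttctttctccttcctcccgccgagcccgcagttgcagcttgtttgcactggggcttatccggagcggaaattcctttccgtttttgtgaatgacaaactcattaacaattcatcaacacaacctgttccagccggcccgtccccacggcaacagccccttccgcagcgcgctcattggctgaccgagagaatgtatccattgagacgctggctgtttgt
Dusp16, chr6:134792629-134792878, minus strand: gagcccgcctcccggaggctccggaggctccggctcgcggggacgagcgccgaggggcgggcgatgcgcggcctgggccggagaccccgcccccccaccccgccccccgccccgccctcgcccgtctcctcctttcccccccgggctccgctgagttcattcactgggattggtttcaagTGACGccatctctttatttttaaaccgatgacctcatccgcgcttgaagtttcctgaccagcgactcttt
Dusp3, chr11:101984792-101985041, minus strand: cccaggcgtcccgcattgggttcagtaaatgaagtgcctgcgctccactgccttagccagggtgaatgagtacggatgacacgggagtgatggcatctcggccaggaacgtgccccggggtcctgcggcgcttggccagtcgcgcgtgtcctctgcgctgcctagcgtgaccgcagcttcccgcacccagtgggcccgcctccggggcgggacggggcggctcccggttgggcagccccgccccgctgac
Dusp1, chr17:26508473-26508722, minus strand: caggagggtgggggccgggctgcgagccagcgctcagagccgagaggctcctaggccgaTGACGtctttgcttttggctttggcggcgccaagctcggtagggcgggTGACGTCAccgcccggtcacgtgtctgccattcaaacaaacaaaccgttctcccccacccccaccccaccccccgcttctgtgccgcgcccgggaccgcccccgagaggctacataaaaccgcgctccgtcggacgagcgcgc
Dusp5, chr19:53528895-53529144, plus strand: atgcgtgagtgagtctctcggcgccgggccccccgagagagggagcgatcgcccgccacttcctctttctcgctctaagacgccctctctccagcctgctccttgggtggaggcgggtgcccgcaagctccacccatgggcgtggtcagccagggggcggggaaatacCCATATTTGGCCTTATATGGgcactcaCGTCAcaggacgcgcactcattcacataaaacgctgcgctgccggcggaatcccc

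Among the 9 upstream regions, that of Dusp1 alone held the full CRE, the binding site of CREB and ATF factors, from 143 to 136 bases before the start. This motif was present in 1.55% of 32851 annotated upstream regions of the same length. Dusp5 held 2 CArG boxes side by side, from 82 to 63 bases before the start, and 1.47% of all regions held at least 1. The half-site was found in Dusp1, Dusp5 and Dusp16, 3 of 9 regions, and in 17.8% of all regions. The letters of the NFAT5 core, AP-1, ETS and TATA motifs did not occur in any of the 9 windows, while they occurred in 18.6%, 6.75%, 12.03% and 12.4% of all regions. The share of G and C ran from 56.4% (Dusp6) to 77.6% (Dusp22) in the 9 windows, against a median of 52.4% over all regions. The part of this base composition in the absence of the motifs was not tested. The upstream regions of Dusp6 and Dusp3, the lower genes, held none of the motifs searched. The same was true of Dusp2, Dusp7, Dusp10 and Dusp22, which were within 1.5-fold. A match describes the letters of the window and was not measured as binding.

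Dusp1, Dusp2, Dusp4 and Dusp5 encode the inducible nuclear phosphatases, and all 4 genes differed by less than 1.5-fold between the diets, with log2 fold changes from −0.070 to 0.35. Dusp1, or MKP-1, which acts mainly on p38 and JNK, lies on chromosome 17 (26505591 to 26508472, GRCm38.p6). Its signal was 2169 ± 217 intensity units under NSD and 1909 ± 191 under HSD, where ± is the error that the extraction software assigned to the spot. The log2 fold change of Dusp1 was −0.070 ± 0.20, with the error propagated from both spots, so its size was below that error. This error holds no variation between mice, so a value beyond it does not separate the diets either.

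Dusp2, known as PAC1 and first described in activated lymphocytes, lies on chromosome 2 (127336159 to 127338377). Its signal was 769 ± 76.9 under NSD and 781 ± 78.1 under HSD, a log2 fold change of 0.14 ± 0.20. The arrays gave nearly the same value for this gene. Dusp4, or MKP-2, which lies on chromosome 8 (34807610 to 34819894), had signals of 42.0 ± 4.30 and 43.9 ± 4.49, with a log2 fold change of 0.18 ± 0.21. Dusp5, the nuclear phosphatase selective for ERK on chromosome 19 (53529145 to 53541809), was dim, with signals of 10.9 ± 1.68 under NSD and 12.8 ± 1.79 under HSD. Its log2 fold change was 0.35 ± 0.30, and the size of this value was below the 1.41 that bounded 99% of the differences between spots of the same probe at such low signals. Dusp1 and Dusp5, whose upstream regions carry the CRE and the CArG boxes shown above, thus both differed by less than the spread between spots of the same probe.

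Dusp6 and Dusp7 encode cytoplasmic phosphatases selective for ERK, and they differed in their values. Dusp6, or MKP-3, a known product of ERK signalling that feeds back on it, lies on chromosome 10 (99263231 to 99267489). Its signal was 3561 ± 356 intensity units under NSD and 1619 ± 162 under HSD. Dusp6 was thus 2.03-fold lower under HSD, with a log2 fold change of −1.02 ± 0.20, and 3.99% of all genes had a larger fall. Spots of the same probe on an array at such signals differed by less than 0.45 on the log2 scale in 99% of pairs, so the difference in Dusp6 exceeded the measurement spread within an array. Dusp7, on chromosome 9 (106368560 to 106375724), had signals of 256 ± 25.7 and 219 ± 21.96 and a log2 fold change of −0.11 ± 0.20, within that spread.

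Dusp10 and Dusp16 encode phosphatases that prefer JNK and p38 over ERK. Dusp16, or MKP-7, lies on chromosome 6 (134715468 to 134807063) and was measured by 2 probes, both listed for the same transcript. The brighter probe had a signal of 238 ± 23.8 under NSD and 415 ± 41.5 under HSD, a log2 fold change of 0.92 ± 0.20 or 1.89-fold higher, and 3.36% of all genes had a larger rise. The dimmer probe did not stand well above background under NSD, with signals of 4.78 ± 1.12 and 9.69 ± 1.46. Taken at that dim signal it was 2.20-fold higher, a log2 fold change of 1.13 ± 0.40. Both probes were higher under HSD, but the log2 fold change of 1.13 for the dimmer probe was smaller than the 1.41 within which 99% of spot pairs among the dimmest probes lay. With limma's normexp background correction the dimmer probe had a log2 fold change of 0.13 and the brighter 0.83. This correction adds an offset of 50 intensity units on both arrays. The offset shrinks the log2 fold change of any dim probe, so a small value there cannot decide whether the probe differed.

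Dusp10, or MKP-5, on chromosome 1 (184034381 to 184075636), had signals of 68.1 ± 6.88 under NSD and 57.0 ± 5.77 under HSD. Its log2 fold change was −0.14 ± 0.21, or 0.0020 with the normexp correction, and the size of both values was below the error from the spots. Of the 2 phosphatases with a preference for JNK and p38, Dusp16 was past 1.5-fold and Dusp10 was not.

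Dusp3 and Dusp22 encode small atypical phosphatases without the docking domain. Dusp3, or VHR, which can dephosphorylate ERK and JNK, lies on chromosome 11 (101971141 to 101987013) and was measured by 2 probes. The brighter probe had a signal of 1349 ± 135 intensity units under NSD and 622 ± 62.2 under HSD. Dusp3 was 2.00-fold lower in the HSD group by this probe, a log2 fold change of −1.003 ± 0.20, and 4.15% of all genes had a larger fall. The other probe gave signals of 101 ± 10.1 and 47.9 ± 4.89 and a log2 fold change of −0.96 ± 0.21. The probes of Dusp3 thus differed by 0.047 on the log2 scale, against a median difference of 0.23 over 3087 genes with 2 probes measured on both arrays, of which 69.2% had probes with the same sign. With the normexp correction the brighter probe kept a log2 fold change of −1.06, and the dimmer had −0.46, below 1.5-fold.

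Dusp22, also known as JKAP and linked to the JNK pathway and to T-cell receptor signalling, lies on chromosome 13 (30660059 to 30711232), and its 2 probes are listed for different transcripts. The brighter probe had signals of 66.8 ± 6.75 under NSD and 45.2 ± 4.62 under HSD, a log2 fold change of −0.45 ± 0.21. The dimmer probe had signals of 19.8 ± 2.19 and 18.3 ± 2.05 and a log2 fold change of 0.0047 ± 0.23. The value of Dusp22 thus depended on the probe, and neither probe reached 1.5-fold.

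Each DUSP probe was printed in 1 spot per array, so its own spread could not be measured. The error assigned by the software was between 10.0% and 23.4% of the signal over the 13 probes. The grey bands rest instead on probes of other genes printed in several spots, divided into 5 groups of rising signal, and they include neither the mice, the isolation of the cells nor the labelling. At the signal of Dusp6, Dusp1 and the brighter Dusp3 probe, in the brightest group, 0.571% of the spot pairs were past 1.5-fold within an array while 12.4% of the probes were past 1.5-fold between the diets. In the dimmest group, which holds Dusp5 and the second Dusp16 probe, these shares were 14.4% and 19.7%.

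**Figure D2:**
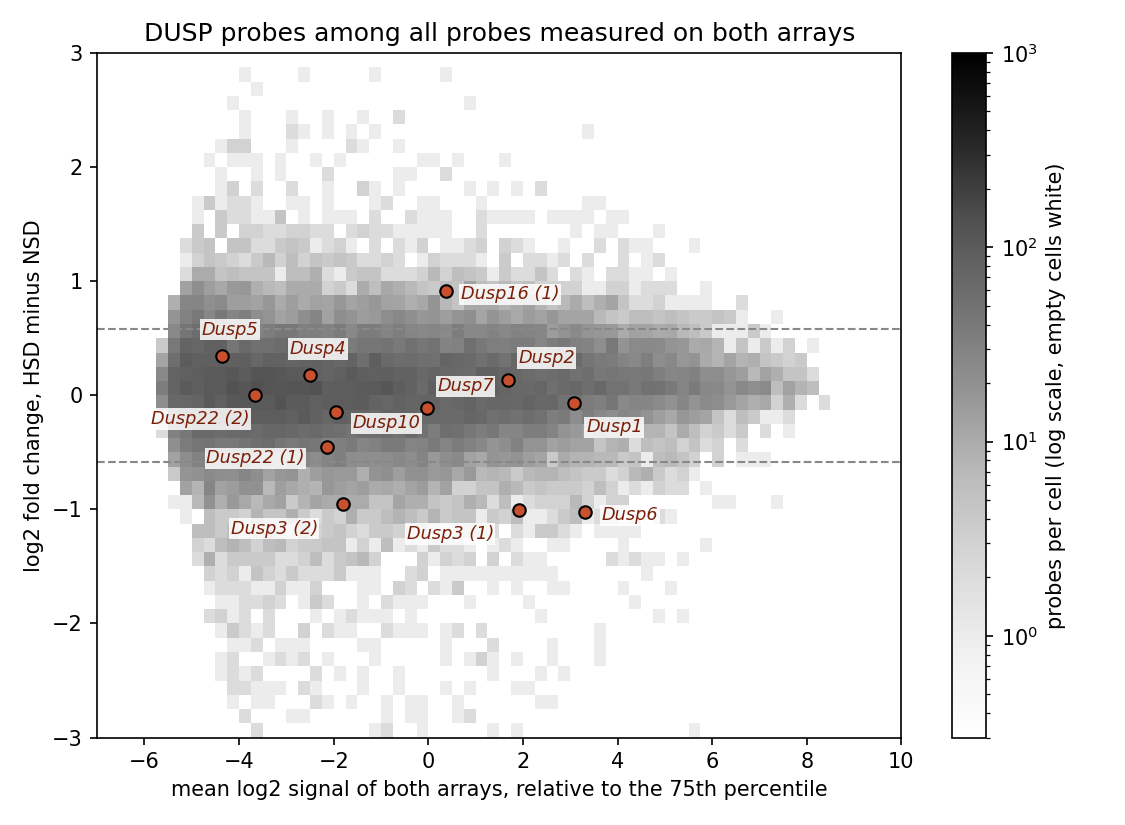
Log2 fold change (HSD minus NSD) against the mean log2 signal, relative to the 75th percentile of the array, for all probes well above background on both arrays (grey cells, darker with more probes, with those beyond 3 log2 units not drawn) and for the 12 DUSP probes measured on both (points, with the rank by signal in brackets where a gene has 2 probes). Dusp6, both Dusp3 probes and the brighter Dusp16 probe lie beyond the dashed 1.5-fold lines, and the other points lie within them.

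The kinases that these phosphatases act on were read from the same arrays. Of 10 MAP kinase genes, 3 were higher by at least 1.5-fold and 1 lower, with a median log2 fold change of 0.28. Mapk3, which encodes ERK1, a substrate of DUSP6, had signals of 1955 under NSD and 2325 under HSD and a log2 fold change of 0.36. Mapk14, which encodes p38α, had a log2 fold change of −0.0071. Mapk13, the gene of another p38 isoform, had signals of 4072 under NSD and 5119 under HSD and a log2 fold change of 0.44. The genes of the 2 dimmer p38 isoforms were at least 1.5-fold higher, Mapk11 (31.7 and 68.1 intensity units) by 1.22 and Mapk12 (21.5 and 37.2) by 0.91. With the normexp correction these values were 0.45 and 0.33, below 1.5-fold. Mapk8, encoding JNK1, had a log2 fold change of 0.19 and Mapk9, encoding JNK2, fell from 264 to 152, with a log2 fold change of −0.68 that was −0.46 under the normexp correction. Mapk10, the gene of JNK3, did not stand well above background under NSD. Taken at that dim signal it was 3.14-fold higher, with a log2 fold change of 0.28 under the normexp correction. With that correction 0 of the 10 genes were past 1.5-fold in either direction. For the dim genes Mapk10, Mapk11 and Mapk12 this cannot decide the matter, because the offset shrinks their changes.

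Among the kinases upstream, 1 of 6 usable MAP kinase kinase genes was at least 1.5-fold lower and none higher. It was Map2k5, the activator of ERK5, with a log2 fold change of −0.71. Of 15 MAP kinase kinase kinase genes 2 were at least 1.5-fold higher, Map3k6 by a log2 fold change of 0.92 and Mos, which was dim under NSD, by at least 2.92-fold. With the normexp correction these genes had log2 fold changes of 0.41 and 0.24. Of the 10 genes for kinases activated by MAP kinases, Rps6ka2 was higher (log2 fold change 1.21) and Rps6ka1 lower. Rps6ka1, which encodes RSK1, a kinase activated by ERK, had a signal of 10122 under NSD and 4579 under HSD, a log2 fold change of −1.03. The median log2 fold changes of these lists were 0.36 for the MAP kinase kinases, −0.12 for the kinases above them and 0.31 for the kinases below the MAP kinases.

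Other inhibitors of the pathway were compared in the same way. Of 12 usable genes among 16 other DUSP and related genes, Dusp28 was higher (log2 fold change 0.67) and Dusp18, dim in the NSD group, at least 1.72-fold higher, while Dusp12 was lower, with signals of 152 and 89.0 and a log2 fold change of −0.65. With the normexp correction Dusp28 had 0.42, Dusp18 0.10 and Dusp12 −0.35, all below 1.5-fold. The median of these 12 genes was 0.15, and Dusp9, Dusp19, Dusp21 and Dusp26 were not well above background on either array. Of 8 phosphatases of other families that act on MAP kinases, Ptpn7, the tyrosine phosphatase of haematopoietic cells that binds ERK and p38, was higher, from 201 to 325 intensity units or by a log2 fold change of 0.81. Ptprr, a tyrosine phosphatase with the same kind of docking motif, was lower, with signals near background (9.19 and 5.17) and a log2 fold change of −0.71 that was 0.022 under the normexp correction. Sprouty and Spred proteins, which restrain the activation of ERK and are induced by it, had 5 usable genes, with a median of −0.099. Spry1 was higher (log2 fold change 0.67) and Spry2 lower (−0.72), and with the normexp correction these values were 0.21 and 0.0017. Spry4 fell from 15.3 intensity units to a signal not well above background, at least 3.22-fold lower, with a log2 fold change of −0.19 under the normexp correction.

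Of 23 usable immediate-early genes, which like Dusp1 and Dusp6 are rapidly induced by MAP kinase signalling, 2 were higher by at least 1.5-fold and 4 lower, with a median log2 fold change of −0.041. Fos, a target of ERK through the serum response element, fell from 5514 to 2633, with a log2 fold change of −0.95, Egr1 from 773 to 437 (−0.71) and Atf3 from 587 to 217 (−1.32). Junb was also lower, with a log2 fold change of −0.68 that was −0.36 under the normexp correction. Ier3 rose from 848 to 2364 (1.59) and Maff from 37.4 to 75.8 (1.13, or 0.53 with the normexp correction). Jun and Zfp36 had log2 fold changes of 0.35. Dusp1, with −0.070, was not among the genes of this kind that were past 1.5-fold.

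**Figure D3:**
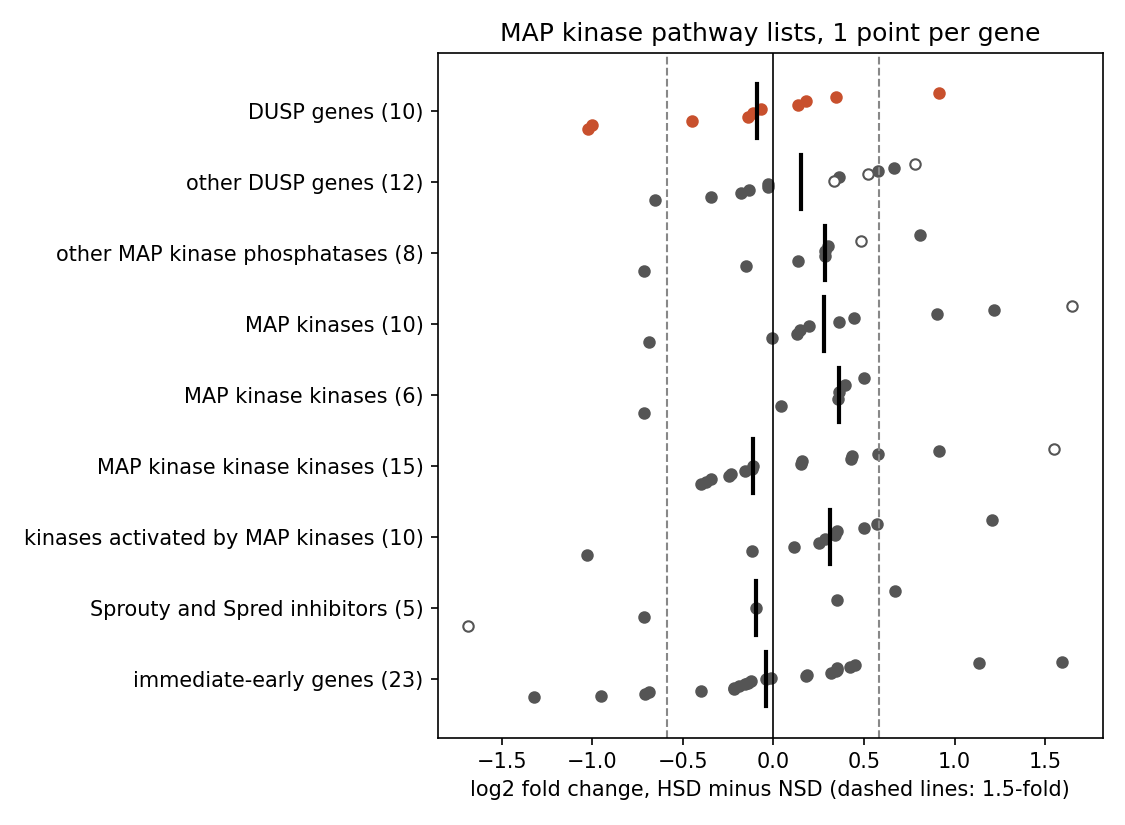
Log2 fold change (HSD minus NSD) of the usable genes of each MAP kinase pathway list, 1 point per gene, with open points for genes dim on 1 array, black bars for medians, dashed lines at 1.5-fold and the number of usable genes in brackets. The medians of the lists lie between −0.12 and 0.36, and in all lists except the MAP kinase kinases and their activators points lie beyond both dashed lines.

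The markers of the isolated cells were read on the same arrays. Itgam, which encodes CD11b, and Ly6c1, a Ly6C gene, were bright in both groups, with log2 fold changes of 0.090 and 0.018, and Csf1r had −0.37. Of 10 usable genes of monocytes and MDSCs, Cd14 was at least 1.5-fold higher (2337 and 3804, log2 fold change 0.82) and Ccr2 at least 1.5-fold lower (259 and 139, −0.78), and the median was 0.048. All 9 usable granulocyte markers were well above background on both arrays, with summed signals of 261217 under NSD and 254078 under HSD and a median of 0.069. Of these 9, 1 was at least 1.5-fold lower, Mpo (3536 and 1723, log2 fold change −0.92, or −0.90 with the normexp correction), and none higher. Of 8 usable macrophage markers 5 were lower by at least 1.5-fold under HSD and none higher, with a median of −0.98 and summed signals of 14354 and 8829. With the normexp correction 3 of the 8 were past 1.5-fold, all lower, and the median was −0.56. Adgre1, which encodes F4/80, had −0.55, and Mrc1 fell from 134 to 5.49, with a log2 fold change of −4.50 that was −1.57 under the normexp correction. Carcinoma, fibroblast and endothelial markers were dim, with summed signals from 169 to 531 on either array. Of 7 usable carcinoma markers 3 were at least 1.5-fold higher (median 0.18), with signals of 14.5 and 21.8 for Epcam. Of 6 usable fibroblast markers 1 was higher and 3 lower (median −0.68), while Col1a1 had 89.1 and 77.2, and of 6 usable endothelial markers, with Pecam1 at 90.8 and 99.1, none was past 1.5-fold. With the normexp correction 0 of these carcinoma and fibroblast markers were past 1.5-fold, but its offset shrinks changes at such dim signals whatever their size. Of 9 usable T- and NK-cell markers 1 was past 1.5-fold, Cd3e with signals of 115 and 49.8, while the summed signal of the list was 2880 under NSD and 3295 under HSD and its median −0.095. Of 7 usable dendritic cell markers 2 were at least 1.5-fold higher and 1 lower (median 0.062). Of 6 usable erythroid markers 1 was lower and 0 higher (median −0.16), with summed signals of 62956 under NSD and 55356 under HSD. With the normexp correction 1 dendritic cell marker was higher, 0 were lower, and 0 erythroid markers were past 1.5-fold. The part of the macrophage markers in the values of Dusp6, Dusp3 and Dusp16 was not tested.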

How the data were processed

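Each array was scanned and extracted by the authors with Feature Extraction 11.0.1.1, and the deposited processed signal is an intensity corrected for background and spatial trend. The authors also deposited log2 values from GeneSpring, whose normalization is not named. Sorted, 39353 of the 39485 values of the columns differ by less than 0.001, so both arrays share nearly 1 distribution there. These values, and the deposited median intensities of spot and background (for normexp, offset 50), were alternatives only. The offset is added on both arrays and shrinks the log2 fold changes of dim probes. A dim gene that falls below 1.5-fold with normexp is therefore not shown to be unchanged. The shares over all genes were counted without normexp, so the counts with it have no such share beside them.

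Control and outlier-flagged spots were left out, signals were log2 transformed, spots of a probe averaged, and the 75th percentile over all 39413 probes subtracted per array. A probe was usable when well above background on at least 1 array, in at least 50% of its spots. Where it was dim on 1 array, the dim side takes the array's lowest signal well above background (4.61 for NSD and 4.39 for HSD, in intensity units) or the probe's own signal if that is higher. The fold change is a lower bound in the former case and the probe's own ratio in the latter, as for the dimmer Dusp16 probe and Mapk10. The brightest usable probe stands for a gene. Probe transcripts were matched, without versions, to RefSeq on GRCm38.p6 (69.1% named). Probes listed under other identifiers, and genes without a match such as Ly6c2 and Ly6g, were not analysed here. The array design is annotated on an older assembly, so coordinates are those of the genes, not of the probes.

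The members, lists and settings were chosen with earlier results of these data known. Named are all DUSP genes, of each pathway list up to 3 genes past 1.5-fold in each direction, the main MAP kinases and fixed markers, of which some are not reported here. Jun, Zfp36, Mapk13, Ly6c1, Cd14, Ccr2, Mrc1, Mpo and bounds were added after their values were seen. No test was run with 1 array per diet. The number of arrays limits the precision. Counting was tested on simulated data beforehand. Both arrays lay on 1 slide. The software was Python 3.11.15, R 4.3.3 and limma 3.58.1.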

Additional observations from a re-analysis of the deposited data

How the results depend on the processing

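The calls of Dusp16 as higher and of Dusp6 and Dusp3 as lower were the same under all 10 alternatives at the 1.5-fold threshold: normexp correction, quantile and cyclic loess normalization, scaling by detected probes or by the median, the deposited values, a stricter and no filter on dim probes, outlier spots kept, and a gene's probes summarised by their median. Over these settings the log2 fold change lay between 0.83 and 1.02 for Dusp16, between −1.13 and −0.97 for Dusp6 and between −1.10 and −0.98 for Dusp3. Not all of the settings could alter these calls. The probes that stand for these genes were well above background on both arrays, so the filter settings left their values unchanged. Keeping outlier spots moved only the scaling, and Dusp6 has a single probe, so a median over probes is the same value. At a 2-fold threshold 0 DUSP genes and 1 probe were higher, the dimmer of Dusp16, and 2 genes were lower, of which Dusp3 lay at 2.00-fold. The probes at least 1.5-fold higher numbered 1 in place of 2 with the normexp correction, where the dimmer Dusp16 probe had a log2 fold change of 0.13, and where probes had to be well above background on both arrays, which leaves that probe out. The normexp correction also left 2 of the 3 lower probes past 1.5-fold, without the dimmer Dusp3 probe (−0.46). Of 100 values of single DUSP genes under the alternatives all 100 kept their side of 1.5-fold, and those of the filter settings were bound to do so. Among genes within 1.5-fold, 3 values moved by more than the SD of the difference between 2 spots of a probe at that signal. They were Dusp10 (0.0020) and Dusp22 (−0.20) with the normexp correction and Dusp22 (−0.22) with the median over its probes. Of 80 medians of pathway lists 6 moved by more than the median of that SD over the groups of signal, those of the immediate-early genes with the normexp correction (0.11), of the Sprouty and Spred genes (0.13) and the other DUSP genes (−0.029) with the stricter filter, of the other DUSP genes with no filter (0.36) and with the median over probes (0.33), and of the MAP kinase kinase kinases with the median over probes (0.15). No paired analysis was possible because each diet has 1 array. Signals near background limit Dusp5, the dimmer Dusp16 probe and the Sprouty genes.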
